A study of Mustela putorius furo with 8 samples.

Results

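Osteopontin, the product of SPP1, and 5 further secreted proteins, SPARC, VCAN, CTHRC1, PAPPA and CLU, were followed through polarization of cultured ferret pancreatic ductal epithelia (PDE). The 6 genes are 6 of the 27912 genes in the count tables, were found there by symbol, and were selected because their levels were high in late cultures lacking the CFTR anion channel. Their late levels in those cultures are therefore a description, and no test is attached to them.

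PDE cultures from wild-type (WT) and CFTR KO/KO (CF) ferrets were profiled by single cell RNA-seq at day 2, 5, 7 and 9 of air-liquid interface (ALI), with 1 library for each genotype and day. Ducts were taken from ferrets 1 to 3 days old, the cells were carried through 10 passages before they were seeded on filters, and, by the study's methods, each genotype was pooled from several donors. The CF animals carry a germline disruption of CFTR in every cell, and WT and CF cultures shared the same medium and time course. No library had a replicate, so genotype cannot be told apart from the library or from the donors pooled for it in any CF minus WT value, no p-value is given, and each interval is an exact 95% interval that covers counting error only.

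The retained cells numbered 21600 in WT and 11345 in CF, with totals per library of 34735952 to 114585136 unique molecular identifiers (UMIs) and a median of 14949 to 23427 UMIs per cell. CFTR transcripts were counted in both genotypes, at 6.57 to 29.5 CPM (UMIs of the gene per 1000000 UMIs of the library) in WT and 2.50 to 11.4 CPM in CF. Such tags read the 3' end of a transcript and do not check whether the gene is disrupted. SOX2, a transcription factor of foregut progenitors, separated the genotypes completely, at 68.5 to 114.5 CPM in WT against at most 0.0864 CPM in CF. The summed level of 6 epithelial genes was 7871 to 10338 CPM in WT and 9150 to 9777 CPM in CF, so the labelled epithelial identity held in every library.

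Matricellular proteins are secreted into the extracellular matrix, where they tune how cells attach, migrate and respond to growth factors without forming the scaffold itself. Osteopontin binds integrins and CD44 and is made by normal pancreatic duct cells. SPARC (osteonectin) binds collagen and is in the pancreas best known from stellate cells and fibroblasts. Versican, the product of VCAN, is a large proteoglycan that binds hyaluronan, CTHRC1 is a secreted glycoprotein linked to WNT signalling through planar polarity, PAPPA is a secreted protease that cleaves insulin-like growth factor (IGF) binding proteins, and clusterin, the product of CLU, is an extracellular chaperone. In the RefSeq annotation of ASM1176430v1.1 all 6 are protein-coding genes with no overlapping neighbour. They carry the gene IDs 101672620 (SPP1), 101669868 (SPARC), 101693475 (VCAN), 101680533 (CTHRC1), 101691670 (PAPPA) and 101690637 (CLU). SPP1 lies between PKD2 and MEPE, SPARC between FAT2 and ATOX1, VCAN between HAPLN1 and XRCC4, CTHRC1 between FZD6 and SLC25A32, PAPPA between TNC and ASTN2, and CLU between LOC101690348 and SCARA3. No positions are given, since the annotation used assigns these genes to no named chromosome.

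SPP1 was almost silent at day 2 in both genotypes and highest in late CF cultures. In WT its level was 2.41 CPM at day 2, 141.5 at day 5, 83.5 at day 7 and 169.8 at day 9. In CF it was 2.98, 41.7, 1082 and 1940 CPM on the same days. The genotypes thus traded places, with WT 3.39-fold above CF at day 5 (95% interval 3.26 to 3.53) and CF 13.0-fold above WT at day 7 (12.6 to 13.3) and 11.4-fold at day 9 (11.2 to 11.6). On the log2(CPM + 1) scale the CF minus WT difference was 0.22, -1.74, 3.68 and 3.51 at day 2, 5, 7 and 9. Only WT day 2 and CF day 2 were neighbours with overlapping intervals when the 8 libraries were put in order of their SPP1 level.

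SPARC followed the same order of libraries as SPP1, from WT day 2 up through CF day 2, CF day 5, WT day 7, WT day 5, WT day 9 and CF day 7 to CF day 9, and no neighbouring intervals overlapped. Its levels were 1.54, 159.3, 123.6 and 165.6 CPM in WT and 7.64, 95.5, 787 and 922 CPM in CF. Of the 782 SPARC UMIs at CF day 2, 584 lay in 5 cells described below, and without them that level was 1.94 CPM. Whether its interval would then stay apart from that of WT day 2 was not computed. The CF level was 6.37-fold the WT level at day 7 (6.23 to 6.52) and 5.57-fold at day 9 (5.47 to 5.68). CLU had that order of libraries too, at 122, 2112, 1459 and 3746 CPM in WT and 315, 1165, 4450 and 6348 CPM in CF. Unlike the other genes it was already above 100 CPM at day 2 in both genotypes. The CF to WT ratio of CLU was 3.05 at day 7 (3.03 to 3.07) and 1.69 at day 9 (1.69 to 1.70), so with all cells it stayed within 2-fold on the last day.

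VCAN and CTHRC1 were under 1 CPM in every WT library and above 10 CPM in late CF. VCAN was 0.227, 0.820, 0.639 and 0.991 CPM in WT and 0.381, 2.32, 18.1 and 17.2 CPM in CF, that is 26 to 84 UMIs in each WT library against 628 and 861 at CF day 7 and 9. Its CF to WT ratio was 28.3 at day 7 (21.4 to 38.2) and 17.4 at day 9 (13.9 to 22.0). Among WT libraries the VCAN intervals of neighbouring levels overlapped from day 5 on, and the level went in no 1 direction. The ratio of day 7 to day 5 was 0.779 (0.541 to 1.11) and that of day 9 to day 7 was 1.55 (1.09 to 2.23). From day 2 to day 5 the WT ratio was 3.62 (2.30 to 5.85), from few UMIs. CTHRC1 was 0.105, 0.939, 0.952 and 0.908 CPM in WT and 1.51, 3.51, 12.5 and 16.1 CPM in CF. It was the one gene of the 6 whose 4 CF libraries all lay above its 4 WT libraries, with a ratio of 14.5 at day 2 (8.05 to 28.6, from 12 and 155 UMIs) and 17.7 at day 9 (14.0 to 22.6).

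PAPPA departed from the others, with no lasting excess in CF. It was 0.567, 52.1, 39.0 and 87.7 CPM in WT and 0.215, 4.21, 52.1 and 70.2 CPM in CF. WT was 12.4-fold above CF at day 5 (11 to 13.9), CF was 1.34-fold above WT at day 7 (1.26 to 1.41) and WT was 1.25-fold above CF at day 9 (1.20 to 1.30). The highest of its 8 libraries was WT day 9. PAPPA in CF therefore came up later than in WT to a similar level, whereas SPP1 went far past it.

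**Figure D1:**
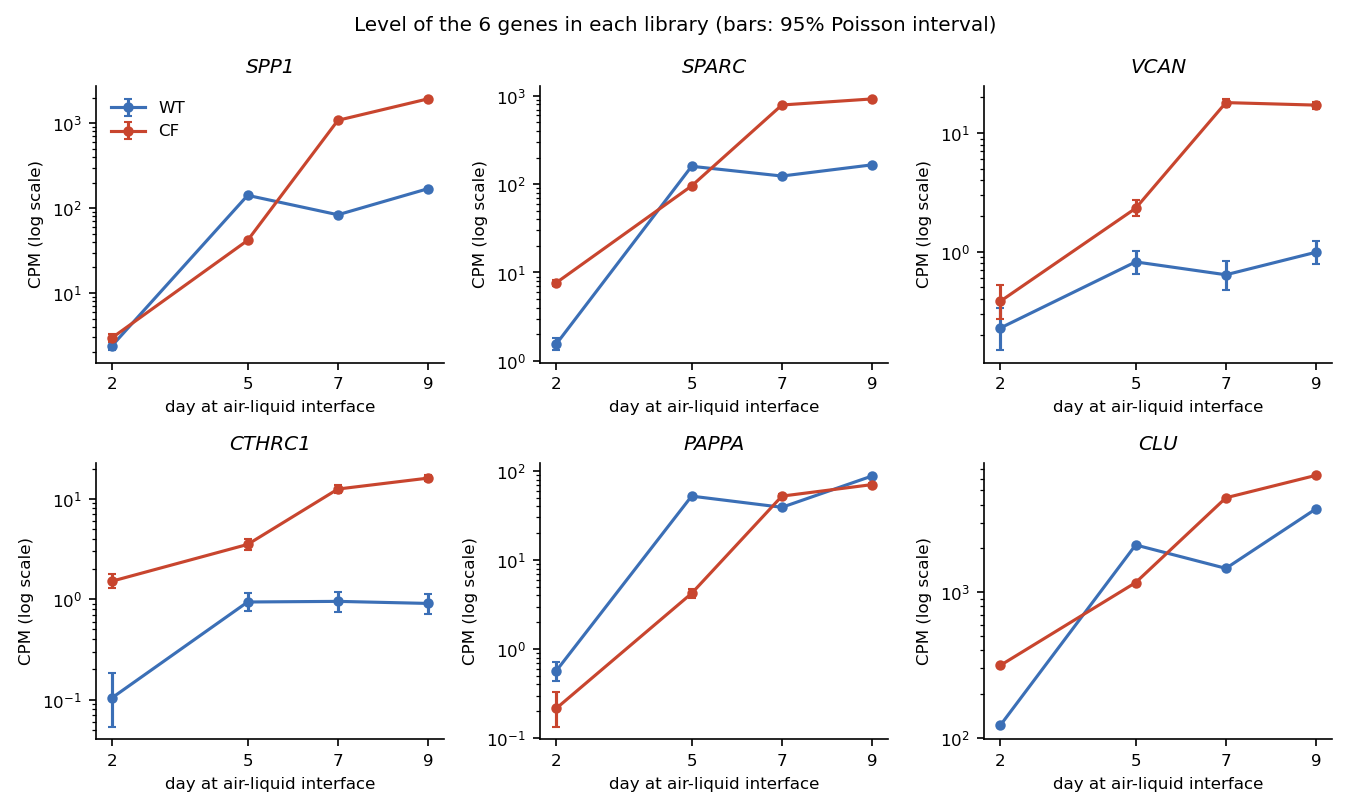
Level in CPM of each of the 6 genes (log vertical axis, with a different range in each panel) against day at the air-liquid interface, for WT (blue) and CF (red), with 1 library per point and bars for the 95% Poisson interval. SPP1, SPARC and CLU are higher in WT at day 5 and higher in CF at day 7 and 9, VCAN and CTHRC1 stay under 1 CPM in WT, and PAPPA ends at 87.7 CPM in WT and 70.2 CPM in CF.

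The members past a 2-fold difference on the log2(CPM + 1) scale were set beside all genes with at least 30 UMIs over both libraries of the day. This scale understates the fold of genes near or under 1 CPM. A gene can reach 30 UMIs through 1 library alone and can then be called only in that direction. CTHRC1 at day 2 did so through CF, with 12 UMIs in WT and 155 in CF. At day 2, SPARC, CTHRC1 and CLU were past it upward in CF and none was past it downward, against 4.09% of all genes higher and 4.37% lower. At day 5, CTHRC1 was higher and SPP1 and PAPPA were lower in CF, against 2.41% higher and 4.62% lower of all genes. At day 7, 5 of 6 were higher and none was lower, against 5.15% and 3.4%, and at day 9, 4 of 6 were higher and none was lower, against 3.67% and 3.9%. Since the genes were selected on these late libraries, the late counts say nothing beyond the selection. The values nearest the 2-fold line were CTHRC1 at day 2, 1.19 inside it, and VCAN at day 5, 0.87 outside it. The median CF minus WT difference of the 6 genes was 0.71, -0.79, 2.73 and 2.82 at day 2, 5, 7 and 9, beside -0.01, -0.05, 0.12 and 0.07 over all genes tested.

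Within WT, SPP1, SPARC, PAPPA and CLU were at least 2-fold higher at day 5 than at day 2, against 4.76% of all genes tested. The selection named the late CF levels and not the WT course. The genes were still chosen with earlier results of these data known, so the WT counts are a description too. The WT ratios of day 5 to day 2 were 58.7 for SPP1 (52.1 to 66.4), 103.1 for SPARC (88.9 to 120.3), 91.8 for PAPPA (71.9 to 119.1) and 17.3 for CLU (17.0 to 17.6). From day 7 to day 9 in WT, SPP1, PAPPA and CLU were past 2-fold higher, with log2 differences of 1.01, 1.15 and 1.36, against 1.21% of all genes. From day 2 to day 9 the same 4 genes were past it, against 8.3% of all genes. VCAN and CTHRC1 differed by only 0.70 and 0.79 on that log2 scale over the WT course, where a pseudocount of 1 CPM weighs heavily on genes under 1 CPM.

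Within CF the step from day 2 to day 5 was smaller than in WT for SPP1, SPARC, PAPPA and CLU, and a further step came between day 5 and 7. From day 2 to day 5, 5 of 6 genes (all but CTHRC1, at 0.84) were at least 2-fold higher, against 1.77% of all genes. From day 5 to day 7 all 6 were, by 4.66 for SPP1, 3.03 for SPARC, 2.52 for VCAN, 1.58 for CTHRC1, 3.35 for PAPPA and 1.93 for CLU on the log2 scale, against 2.14% of all genes. From day 7 to day 9 none was, against 0.15% of all genes, and the largest difference was 0.84 for SPP1. Over the whole CF course, day 2 to day 9, all 6 were higher by 2.76 (CTHRC1) to 8.93 (SPP1), against 6.98% of all genes. These CF steps are what the genes were chosen by.

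The proportions between the genes also shifted. For each 100 UMIs of SPP1, the WT libraries of day 5, 7 and 9 held 112.6, 147.9 and 97.5 UMIs of SPARC, and the CF libraries held 228.9, 72.7 and 47.6. PAPPA went from 36.8, 46.7 and 51.7 UMIs per 100 SPP1 UMIs in WT to 10.1, 4.81 and 3.62 in CF. VCAN was at 0.580, 0.765 and 0.584 UMIs per 100 in WT and 5.57, 1.67 and 0.888 in CF, and CTHRC1 at 0.664, 1.14 and 0.535 in WT and 8.42, 1.15 and 0.828 in CF, so from day 5 on both were relatively most abundant at CF day 5. At day 2, with 276 and 305 SPP1 UMIs, the proportions were 9.42 (WT) and 12.8 (CF) for VCAN and 4.35 and 50.8 for CTHRC1. Relative to SPP1, then, late CF cultures held less SPARC and PAPPA than WT cultures did, although SPARC itself was higher in CF.

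Part of the day 2 signal came from very few cells. Every cell was scored for 8 fibroblast and stellate cell genes (COL1A1, COL1A2, COL3A1, DCN, LUM, PDGFRA, PDGFRB, THY1), and 7 cells held UMIs of 6 to 8 of them while no other cell held more than 3. Of these 7 cells, 5 were in CF day 2, 1 in CF day 7 and 1 in CF day 9, and all fell in CF cluster 11. The 5 cells at CF day 2 held 584 of the 782 SPARC UMIs, 24 of the 39 VCAN UMIs and 20 of the 155 CTHRC1 UMIs of that library, but 11 of 305 for SPP1 and 4 of 32197 for CLU. Without them, a setting chosen after seeing the data, SPARC at CF day 2 was 1.94 CPM and its CF minus WT difference went from 1.76 to 0.21. At day 7 and 9 the remaining 2 cells held 0 of 37601 and 6 of 97003 SPP1 UMIs, and 424 of 27354 and 197 of 46132 SPARC UMIs, so the late levels hardly depended on them.

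The study's deposited clusters, drawn separately for 41 WT and 30 CF groups of cells, showed that SPP1 was concentrated. In CF, 4 clusters (11, 3, 14 and 16) with 15.8% of the cells held 90% of the SPP1 UMIs. Cluster 11 (401 cells) had 5968 CPM of SPP1 and 43.9% of its CF UMIs, and cluster 3 (673 cells) had 3863 CPM and 39.1%. After each cell was thinned to 3000 UMIs, 95.01% of cluster 11 cells and 90.6% of cluster 3 cells had an SPP1 UMI. In WT, 8 clusters with 24.6% of the cells held 90% of the UMIs, and the leading cluster 2 (1051 cells) stood at 633 CPM with 30.6%. CF clusters 11, 3, 23, 27, 14, 13 and 16 ranged from 671 to 5968 CPM, the lowest of them close to WT cluster 2. Since SPP1 and its companions helped to define these clusters, their differences are descriptive.

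**Figure D2:**
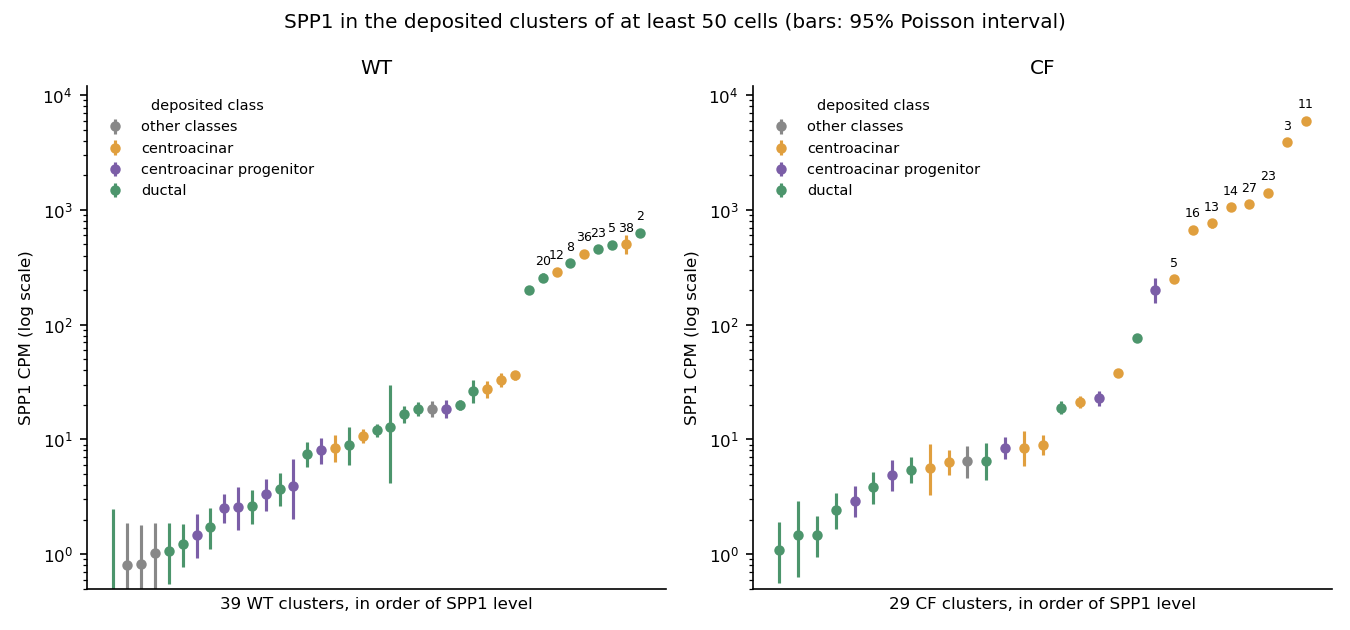
SPP1 level in CPM (log vertical axis) in each deposited cluster of at least 50 cells, in order of level, for 39 WT and 29 CF clusters, colored by the deposited class, with 95% Poisson intervals and the numbers of the 8 highest clusters. Levels under 0.5 CPM lie below the axis. The WT clusters end at 633 CPM in cluster 2, of the ductal class, and the CF clusters at 5968 CPM in cluster 11, of the centroacinar class.

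The other genes were high in the same CF clusters, with exceptions. Cluster 11 was highest of all CF clusters for SPP1, SPARC (2895 CPM), CTHRC1 (57.0 CPM) and CLU (13650 CPM), and cluster 3 followed it for each of these, at 1962, 41.8 and 12996 CPM for the latter 3. VCAN was highest in CF cluster 27, at 99.2 CPM, ahead of cluster 3 at 43.5, cluster 11 at 40.0 and cluster 16 at 28.4. PAPPA was highest in CF cluster 23, at 567 CPM, and cluster 27, at 299 CPM, before cluster 11 at 223 and cluster 3 at 142. CF clusters 23 and 27 held 205 and 183 cells with a median of only 3246 and 4718 UMIs per cell. Unnamed loci made up 9 and 5 of their 10 leading genes, and their median mitochondrial share was 11.7% and 17.4%, against 4.503% in cluster 11. They contributed 8.06% and 4.91% of the PAPPA UMIs of CF, and 0.819% and 0.750% of its SPP1 UMIs.

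The WT clusters with SPP1 fell into more than 1 kind. WT clusters 2 and 5, of the ductal class, held SPP1 (633 and 496 CPM) together with SPARC (912 and 590 CPM) and PAPPA (317 and 220 CPM), and their cells came mainly from day 5 (64.5% and 51.2%). WT cluster 12, of the centroacinar class, held SPP1 at 289 CPM and PAPPA at 108 CPM with SPARC at only 59.8 CPM. WT cluster 8, with 98.9% of its 810 cells from day 9, held SPP1 at 342, SPARC at 320 and CLU at 9949 CPM and had 22.8% of all WT VCAN UMIs. Unlike clusters 2, 5 and 12, which had 103.0, 128.7 and 146.3 CPM of SOX2, cluster 8 had 1.78 CPM, so the SPP1 signal of WT cultures lay in both SOX2-high and SOX2-low cells. WT cluster 20, of 530 cells with a median of 3398 UMIs, was the highest of all clusters in PAPPA, at 643 CPM.

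By deposited class, most SPP1 UMIs lay in ductal cells in WT and, from day 5, in centroacinar cells in CF. Clusters were left out (13 of 71) where their 10 leading genes held more markers of another deposited class than of their own, or where their depth was low and none of their own was among them. In the rest, ductal cells held 73.5% to 81.8% of the SPP1 UMIs of each WT library, and centroacinar cells held 92.1% to 97.4% of those at CF day 5, 7 and 9. At CF day 2, where SPP1 was scarce, ductal cells held 37.7% and centroacinar cells 32.1%. The 10 leading genes of CF cluster 11 held no marker of the centroacinar class and 3 of fibroblasts or smooth muscle (ACTA2, COL1A1 and COL1A2). Of these 3, COL1A1 alone stayed among the 10 without the 7 fibroblast-gene cells. The leading genes of CF clusters 3, 14 and 16 and of WT clusters 2, 5 and 8 held no marker of their own class either. The lack of such a marker thus does not set cluster 11 apart. Cluster 11 had 60.7% of the SPP1 UMIs at CF day 7 and 38.8% at day 9. In the clusters not left out, CF clusters 11, 3, 14 and 16 among them, SPP1 in the centroacinar class stood at 74.4, 1778 and 2469 CPM at CF day 5, 7 and 9. In the ductal class it stood at 7.07, 47.3 and 46.2 CPM, the last from 51 cells. In WT the centroacinar class stood at 156.2, 129.2 and 66.1 CPM on those days and the ductal class at 197.2, 122.0 and 352.2 CPM, so at WT day 7 the ductal class held more of the UMIs at a slightly lower level. SPARC in the WT ductal class was 252.8, 213.1 and 353.3 CPM, and in the CF centroacinar class 175.2, 1267 and 1144 CPM. The class names were given to WT and CF clusters in separate analyses by the study, so a class holds different clusters in each genotype (2, 5 and 8 lead the WT ductal class in SPP1 UMIs, 11 and 3 the CF centroacinar class).

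Levels inside a cluster can be followed over days beside the share of cells in it. SPP1 and its companions helped to define the clusters, so a cell with more SPP1 can fall in another cluster. The parts given for cluster shares and for levels therefore depend on the clustering and are a description. SPP1 in CF cluster 11 was 5787 CPM at day 7 (128 cells) and 6213 CPM at day 9 (266 cells), so its level was close to flat while its share of the library went from 7.97% to 10.7% of cells. SPP1 in CF cluster 3 was 2792 CPM at day 7 (135 cells) and 4342 CPM at day 9 (521 cells), with 8.40% and 20.9% of cells. The clusters with less SPP1 differed most between days, with CF cluster 14 at 164.1, 357 and 1738 CPM on day 5, 7 and 9, cluster 16 at 185.9, 236.4 and 1770 CPM, and cluster 5 at 152.6, 390 and 1072 CPM. Of the SPP1 difference between CF day 7 and 9 (857 CPM), 32.0% went with the shares of the clusters and 68.0% with levels inside them. Of the difference between CF day 5 and 7 (1041 CPM), 59.5% went with cluster shares and 40.5% with levels, but clusters 11 and 3 had only 2 and 17 cells at day 5. With levels from under 20 cells replaced by the cluster's level on the other day, a setting chosen after seeing the data, the parts were 92.4% and 6.45%, and for day 7 to 9 they were 29.9% and 70.3%. The replacement allows no change inside clusters 11 and 3 between day 5 and 7, so the move toward cluster shares follows from it. Whether levels inside those clusters differed between these days cannot be told.

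In WT, SPP1 in cluster 2 was 597, 627 and 704 CPM at day 5, 7 and 9, and in cluster 5 it was 549, 396 and 574 CPM. Cluster 2 was 12.7% of the WT cells at day 5, 1.12% at day 7 and 5.93% at day 9. Of the SPP1 difference between WT day 5 and 7 (-58.0 CPM), 46.3% went with cluster shares and 53.7% with levels inside clusters. Of the difference between day 7 and 9 (86.2 CPM), 4.45% went with cluster shares and 95.6% with levels, and 32.2% and 67.2% with levels from under 20 cells replaced, cluster 8 having had 8 cells at day 7 and 801 at day 9. Of that between day 2 and 5 (139.1 CPM), 90.3% went with cluster shares, and 98.4% with such levels replaced. Each replacement removes any change inside the cluster it touches, so a larger part for cluster shares follows from it. The 90.3% has this limit too, since 29.2% of the day 5 UMIs lay in clusters without a level on both days. At WT day 9, cluster 8, nearly absent before, held 33.4% of the SPP1 UMIs of the library, and cluster 2 held 27.2%.

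**Figure D3:**
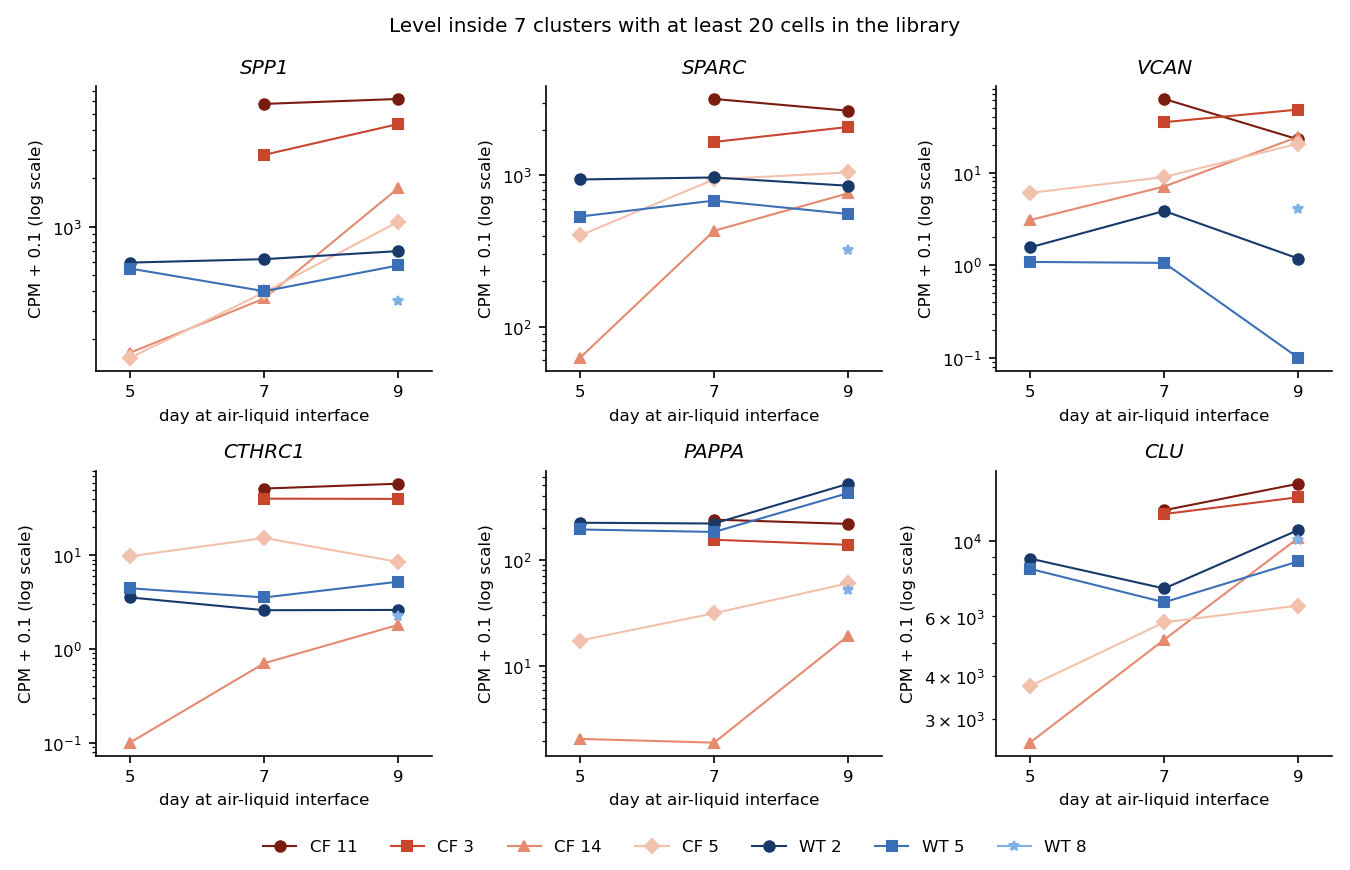
Level of the 6 genes (CPM plus 0.1, log vertical axis) in 4 CF clusters (reds) and 3 WT clusters (blues) against day, shown where the cluster had at least 20 cells in the library, with 1 point per cluster and library. SPP1 goes from 164 to 1738 CPM in CF cluster 14 and stays between 597 and 704 CPM in WT cluster 2.

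In cells thinned to 3000 UMIs, an SPP1 UMI was found in 0.716%, 19.4%, 14.5% and 17.7% of WT cells and in 0.919%, 7.10%, 33.7% and 54.8% of CF cells at day 2, 5, 7 and 9. The interval at CF day 9 was 52.7% to 56.9% and at WT day 9 16.7% to 18.8%. Without thinning the day 9 shares were 69.0% in CF and 30.5% in WT. Thinning left out 39 to 411 cells per library, the most at CF day 7. A background for free RNA is given by the lowest cluster of the same library, CF cluster 18, of the centroacinar progenitor class, where 5.04% of the thinned day 9 cells had an SPP1 UMI at a median of 21715 UMIs per cell, against 96.6% in cluster 11 at a median of 21887. Most SPP1 UMIs sat in few cells, the top 10% of cells holding 80.6% of them at WT day 9, 86.0% at CF day 7 and 60.8% at CF day 9.

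SPARC was found in 55.0% of CF and 19.8% of WT cells at day 9, and CLU in 78.8% and 64.2%. In the lowest cluster of the same libraries SPARC was in 3.17% (CF) and 0% (WT) of cells, and CLU in 34.5% and 19.3%, so much of the CLU share cannot be told apart from free RNA. PAPPA was found in 18.9% of CF and 15.1% of WT cells at day 9, closer together than for the other genes. VCAN was in 5.43% of CF against 0.436% of WT cells and CTHRC1 in 4.99% against 0.246%. For these low genes a thinned cell without a UMI says little about the cell.

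Leaving out CLU, cells at CF day 9 often held several of the other 5 genes. No UMI of the 5 was found in 38.2% of CF day 9 cells, against 69.3% at WT day 9. UMIs of 2 of the 5 were found in 26.6% and of 3 in 19.4% of CF day 9 cells, against 11.7% and 5.11% at WT day 9. All 5 were found together in 7 cells of CF day 9 (0.309%) and in no thinned cell of any other library.

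**Figure D4:**
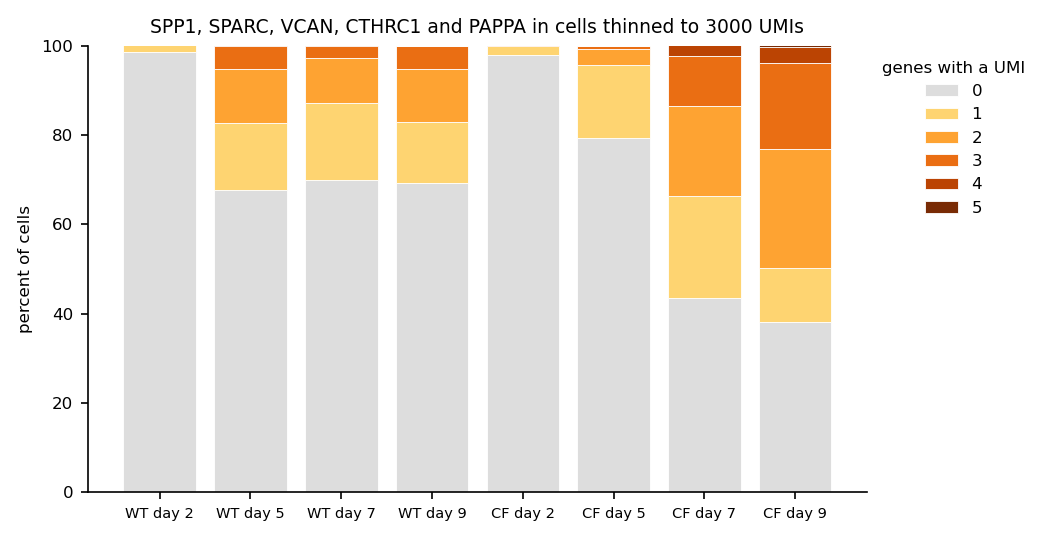
Percent of cells, thinned to 3000 UMIs, in which 0 to 5 of the genes SPP1, SPARC, VCAN, CTHRC1 and PAPPA had at least 1 UMI, stacked for each of the 8 libraries. The share without any of them is 98.6% at WT day 2, 69.3% at WT day 9, 97.8% at CF day 2 and 38.2% at CF day 9.

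SPP1 and SPARC were found in the same cells more often than their separate shares over the library would give, and at day 9 close to as often as their shares cluster by cluster would give. At CF day 9, 1095 cells held both, 1.61 times the 682 computed from the 2 shares over the library and 1.04 times the number computed cluster by cluster. At WT day 9, 528 cells held both, 2.85 times and 1.12 times, and at WT day 5, 519 cells, 2.67 times and 1.02 times. In CF day 9, 88.2% of the cells with SPP1 also held SPARC, against 56.4% at WT day 9. At CF day 5, 92 cells held both, 3.08 times by library and 1.21 times by cluster. PAPPA and SPP1 were found together in 402 cells at CF day 9 (1.71 times by library, 1.03 times by cluster), in 419 at WT day 9 (2.97 times and 1.05 times) and in 17 at CF day 5 (5.32 times and 1.54 times). Of the 113 cells with CTHRC1 at CF day 9, 108 also held SPP1 and all held SPARC. VCAN and CTHRC1 were found together in 10 cells there, 1.63 times the number by library and 0.88 times by cluster.

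Cells with SPP1 held epithelial transcripts, and the leukocyte gene PTPRC was found in 1 of 1003 of them at WT day 5 and in none in the other 7 libraries. At CF day 9 KRT19, a duct keratin, was found in 99.4% of thinned cells with SPP1 and in 98.1% of those without, so it does not separate them. Of the cells with SPP1, EPCAM was found in 40.6% and PTPRC, the pan-leukocyte CD45, in 0 of 1241. For PTPRC this allows a share of up to 0.297% of cells with a UMI at this depth and sets no limit on cells expressing it. DCN, a fibroblast proteoglycan, and COL3A1 were also found in none of the 1241 cells. CD68, a further gene of the leukocyte list, was in 0.564% of them and in 2.93% of the CF day 9 cells without SPP1. TAGLN, a contractile gene of mesenchymal cells, was in 49.7% of cells with SPP1 and 3.71% of those without at CF day 9, in 50.4% and 6.43% at CF day 7, and in 40.0% and 8.66% at WT day 9. ACTA2, a further contractile gene, did not differ in this way. It was in 0.403% of cells with SPP1 and 0.391% of those without at CF day 9. At CF day 7 these were 0.496% and 0.504%, and at WT day 9 0.534% and 0.484%, with overlapping intervals each time. COL1A1 was in 6.37% against 0.488% at CF day 9. At WT day 9 it was in 0.213% against 0.0461%, from 2 cells each and with overlapping intervals. The epithelial genes did not go 1 way. Setting cells with SPP1 against those without, at CF and WT day 9, the keratin gene KRT18 was in 60.8% against 51.9% and in 82.9% against 73.3%, KRT8 in 81.1% against 93.3% and in 82.8% against 94.9%, and EPCAM in 40.6% against 40.7% and in 28.5% against 31.6%. CDH1, which encodes E-cadherin, was in 61.6% against 81.8% at CF day 9 and in 57.2% against 75.4% at WT day 9. At CF day 5 and 7 it was in 67.7% against 70.4% and in 68.0% against 70.4%, with overlapping intervals. SOX2 was in 26.4% of cells with SPP1 against 17.7% of those without at WT day 5 and in 26.2% against 17.3% at WT day 7, with intervals apart. At WT day 9 it was in 18.8% against 20.7%, with intervals that overlapped.

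CF cluster 11 carried the fibroblast and ACTA2 transcripts of the 7 cells named above. It held no UMI of MYH11, CNN1 or DES, the other smooth muscle genes listed. Without the 7 cells its SPP1 level was 6080 CPM (5968 with them), SPARC 2829 (2895), VCAN 35.0 (40.0), CTHRC1 55.9 (57.0), PAPPA 226.6 (223.2) and CLU 13910 (13650). ACTA2, which encodes smooth muscle actin, went from 128.7 to 6.83 CPM, COL1A1 from 140.5 to 50.7 CPM and COL3A1 from 22.6 to 0, while TAGLN was 3006 CPM and KRT19 3543 CPM. The levels of the 6 genes in the cluster were nearly as large, or larger, without those cells. Summed over each library, the 8 fibroblast genes stood at 2.30 to 5.79 CPM in WT and 1.54 to 32.8 CPM in CF, 4 smooth muscle genes at 0.899 to 1.78 and 0.406 to 24.0 CPM, 6 leukocyte genes at 11.9 to 19.4 and 6.05 to 25.1 CPM, 5 endothelial genes at 0.0826 to 0.145 and 0.0800 to 0.259 CPM, and CELA1, a digestive enzyme gene, at no more than 0.0785 CPM. ACTA2 alone stood at 23.9 CPM at CF day 7, where the smooth muscle sum was highest. Of its 831 UMIs there, 766 lay in 1 of the 7 cells, and without that cell ACTA2 was 1.87 CPM. COL1A1 at CF day 7 went from 18.9 to 9.08 CPM without the same cell. At CF day 9, ACTA2 went from 9.34 to 1.24 CPM without 1 of the 7 cells. Schwann cell genes (3) summed to at most 0.133 CPM and endocrine genes (4) to at most 0.112 CPM. CSF1R was at 0 in all 8 libraries, PTPRC in 5, and CDH5 and TEK in all 8, while COL3A1 was at 0 in the 4 WT libraries and in none of CF. The part of such cells in the library levels, beyond the 7 cells, was not tested.

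Across CF clusters of at least 50 cells (29 clusters), the genes most like SPP1 in log2(CPM + 1) were SPARC (Pearson r 0.97), SRGN (0.97), FSTL1 (0.97), ANKRD1 (0.97) and TAGLN (0.96), out of 10414 genes. SRGN encodes the proteoglycan serglycin, FSTL1 a follistatin-like relative of SPARC, and ANKRD1 a nuclear protein that is a target of YAP. Across 39 WT clusters they were TAGLN (0.95), CLU (0.95), SPARC (0.95), ANKRD1 (0.94) and CALD1 (0.94), out of 10619. SPARC, ANKRD1 and TAGLN were on both lists. Clusters share libraries and depth, and these r are descriptions.

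The likeness of VCAN to SPP1 differed in size between genotypes, with r 0.90 in CF and 0.60 in WT, where VCAN rested on 246 UMIs in all. VCAN in CF was most like LAMB4, PWWP3B and CUX2 (0.97, 0.96 and 0.95), and in WT like NVL, ADAMTS6 and LOC101686793 (0.90, 0.89 and 0.88). Among the genes most like CTHRC1 in CF were MAPKAPK5 and CNN3 (0.89 and 0.88), and in WT it was most like RSPO2, a secreted enhancer of WNT signalling, LOXL2 and EFNA4 (0.94, 0.91 and 0.90). PAPPA in CF was most like FN1, which encodes fibronectin, CALD1 and COL4A1 (each 0.96), and among those most like it in WT were LOC101680580 and the transcription factor gene MAF (each 0.96). Among the genes most like CLU in CF were NEDD9 and LBH (0.96 and 0.95), and it was most like SPP1, SPARC and PMEPA1 in WT (0.95, 0.95 and 0.94). SPARC was most like SPP1, LOC101687358 and PALMD in CF (0.97, 0.96 and 0.96) and like TAGLN, MYL9 and SPP1 in WT (0.97, 0.96 and 0.95).

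Known partners and relatives of the 6 genes did not move as 1 group. Of 22 other matricellular genes, 11, 11, 11 and 12 were tested at day 2, 5, 7 and 9, of which 2, 1, 5 and 3 were at least 2-fold higher and 1, 2, 1 and 1 lower in CF. Over all genes tested 4.09%, 2.41%, 5.15% and 3.67% were higher and 4.37%, 4.62%, 3.4% and 3.9% lower. Their median differences were 0.13, -0.50, 0.15 and -0.15, beside -0.01, -0.05, 0.12 and 0.07 over all genes. THBS1, TNC and FSTL1 at day 7 reached 30 UMIs through CF alone, with 19, 2 and 15 UMIs in WT. So did POSTN at day 2 (2 in WT), FSTL1 at day 5 (18) and TNC and POSTN at day 9 (7 and 13). These could be called only as higher in CF. CCN4 at day 5, with 122 UMIs in WT and 0 in CF, could be called only as lower. Without the 7 fibroblast-gene cells the higher counts were 1 (of 9 tested) at day 2 and 2 at day 9, POSTN no longer being past 2-fold at day 9. FSTL1 was the one most like SPP1, at 0.122, 0.178, 0.181 and 0.413 CPM in WT and 0.303, 1.48, 22.3 and 27.3 CPM in CF. TGFBI, a TGF-beta-induced adhesion protein, went the other way on every day, at 138.6, 264.5, 195.7 and 165.9 CPM in WT and 9.26, 16.8, 35.7 and 29.7 CPM in CF. CCN2, the connective tissue growth factor, differed by 0.68, 0.96, 1.37 and 0.60. POSTN, which encodes periostin, differed by 1.41, -0.52, 2.24 and 2.03, and without the 7 fibroblast-gene cells by 0.11, -0.52, 1.27 and 0.996, those cells having held 165 of its 175 UMIs at CF day 2.

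For osteopontin receptors and modifiers (13 of 15 genes in the tables, 10 tested), 3, 0, 3 and 1 genes were at least 2-fold higher in the CF library of day 2, 5, 7 and 9 and 1, 4, 1 and 1 were lower. Over all genes 4.09%, 2.41%, 5.15% and 3.67% were higher and 4.37%, 4.62%, 3.4% and 3.9% lower. The list's medians were 0.42, -0.77, 0.33 and 0.20. The receptor subunit ITGB5 was higher by 1.17, 0.55, 1.42 and 1.91, and ITGB1 differed by 0.40, -0.59, 1.16 and 0.53. FAM20C, the kinase that phosphorylates osteopontin, differed by 0.46, -1.14, 1.23 and 0.53. TGM2, a transglutaminase that crosslinks it, was lower in CF on every day, with differences of -2.89, -2.09, -1.41 and -1.25. CD44, chosen after its values were seen as the best known receptor, differed by -0.59, -0.29, -0.21 and -0.09. Of the 4 relatives of SPP1 in its protein family, DMP1 and MEPE were in the tables and neither had 30 UMIs.

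Of 17 versican and hyaluronan partners 7 were tested, and 2, 2, 4 and 5 of them were at least 2-fold higher and 1, 0, 0 and 0 lower in CF at day 2, 5, 7 and 9 (all genes 4.09%, 2.41%, 5.15% and 3.67% higher and 4.37%, 4.62%, 3.4% and 3.9% lower). Their medians were -0.13, 0.51, 1.64 and 1.21, beside -0.01, -0.05, 0.12 and 0.07 over all genes. Proteases that cleave versican were on the list. ADAMTS1 differed by 1.41, 1.60, 2.60 and 2.79, ADAMTS5 by -0.13, 0.95, 3.11 and 3.16, and ADAMTS15 by 0.51, 0.51, 1.64 and 1.39. FBN1, which encodes the microfibril protein fibrillin-1 that binds versican, differed by 1.58, 2.31, 1.82 and 1.04. ADAMTS5 levels were 0.419, 6.06, 5.12 and 4.66 CPM in WT and 0.293, 12.6, 51.9 and 49.6 CPM in CF.

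In the PAPPA axis (10 genes), 1 of 5, 1 of 4, 3 of 6 and 3 of 4 tested genes were at least 2-fold higher in CF and none lower. Over all genes 4.09%, 2.41%, 5.15% and 3.67% were higher and 4.37%, 4.62%, 3.4% and 3.9% lower. The list's medians were 0.63, 0.57, 1.12 and 1.40. IGFBP2 at day 2 (6 UMIs in WT, 136 in CF) and IGF1 at day 7 (12 and 131) reached 30 UMIs through CF alone. IGFBP2, which encodes an IGF binding protein, stood at 0.0524, 0.870, 0.579 and 0.661 CPM in WT and 1.33, 9.09, 20.7 and 40.1 CPM in CF, and IGF2R, the clearance receptor for IGF2, was higher by 0.99, 0.47, 1.36 and 1.03. The receptor gene IGF1R differed by 0.61, 0.67, 0.87 and 0.31. Of the planar polarity and WNT genes (10, of which 7 were tested) none was 2-fold higher in CF on any day, and 0, 1, 1 and 1 were lower. Beside the 4.09%, 2.41%, 5.15% and 3.67% higher of all genes, none higher out of 7 says little. The shares of all genes lower were 4.37%, 4.62%, 3.4% and 3.9%. Medians of these 7 genes were 0.01, 0.08, 0.41 and 0.29. PRICKLE1, a core planar polarity gene, had differences of -0.83, -1.84, -1.37 and -1.09. WNT5A, a WNT ligand, differed by 0.37, 0.85, 0.87 and 0.36, FZD5 by 0.98, 0.99, 0.84 and 0.29 and FZD6 by 0.01, 0.08, 0.60 and 0.40.

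Among clusterin receptors and chaperones (9 genes, 8 tested), 4, 1, 3 and 3 were at least 2-fold higher in CF and none lower. Over all genes 4.09%, 2.41%, 5.15% and 3.67% were higher and 4.37%, 4.62%, 3.4% and 3.9% lower. The list's medians were 0.61, 0.39, 0.81 and 0.85. LRP1, an endocytic receptor, differed by 1.23, 0.72, 1.67 and 1.30, and VLDLR by 1.02, 0.64, 0.74 and 1.12. APOE, a lipid carrier, stood at 0.454, 0.613, 0.494 and 0.566 CPM in WT and 0.645, 1.39, 2.42 and 5.36 CPM in CF. HSPB1, a small heat shock protein, differed by 1.77, 0.05, 0.88 and 0.91.

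The CF minus WT differences depended on which cells stood for each genotype. When WT was limited to its 12 clusters with under 10 CPM of SOX2, the SPP1 difference was -1.29, 1.45, 5.70 and 3.28 at day 2, 5, 7 and 9, against 0.22, -1.74, 3.68 and 3.51 with all WT cells, and PAPPA was -0.07, 1.05, 4.13 and 1.06 against -0.37, -3.35, 0.41 and -0.32. Both genes were thus higher in WT at day 5 with all cells and higher in CF against these clusters. Within the centroacinar class, here with all its deposited clusters, the SPP1 difference was -0.83, -1.05, 4.01 and 5.17, where WT day 2 had 29 cells. Without the leading SPP1 cluster of each genotype (CF 11 and WT 2) SPP1 still differed by 2.60 at day 7 and 3.34 at day 9. SPARC at day 5 was -0.73 with all cells, 3.20 against the SOX2-low WT clusters, 3.45 within the centroacinar class and 0.55 without those leading clusters, so its WT excess that day also depended on the cells chosen. CLU at day 5 was -0.86 with all cells and 2.64, 0.22 and -0.15 under the same choices. At day 2 CLU was 1.36 with all cells, but 0.98 against the SOX2-low WT clusters and 0.04 within the centroacinar class, no longer past 2-fold. At day 9 CLU was 0.76 with all cells and ranged from 0.13 to 2.31 over all settings, so its place within 2-fold depended on the setting. PAPPA at day 7 was 0.41 with all cells and -0.39 without the leading clusters, and at day 9 it was -0.32 with all cells and 1.38 within the centroacinar class. VCAN and CTHRC1 at day 7 and 9 were past 2-fold higher in CF under all 5 choices plotted.

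**Figure D5:**
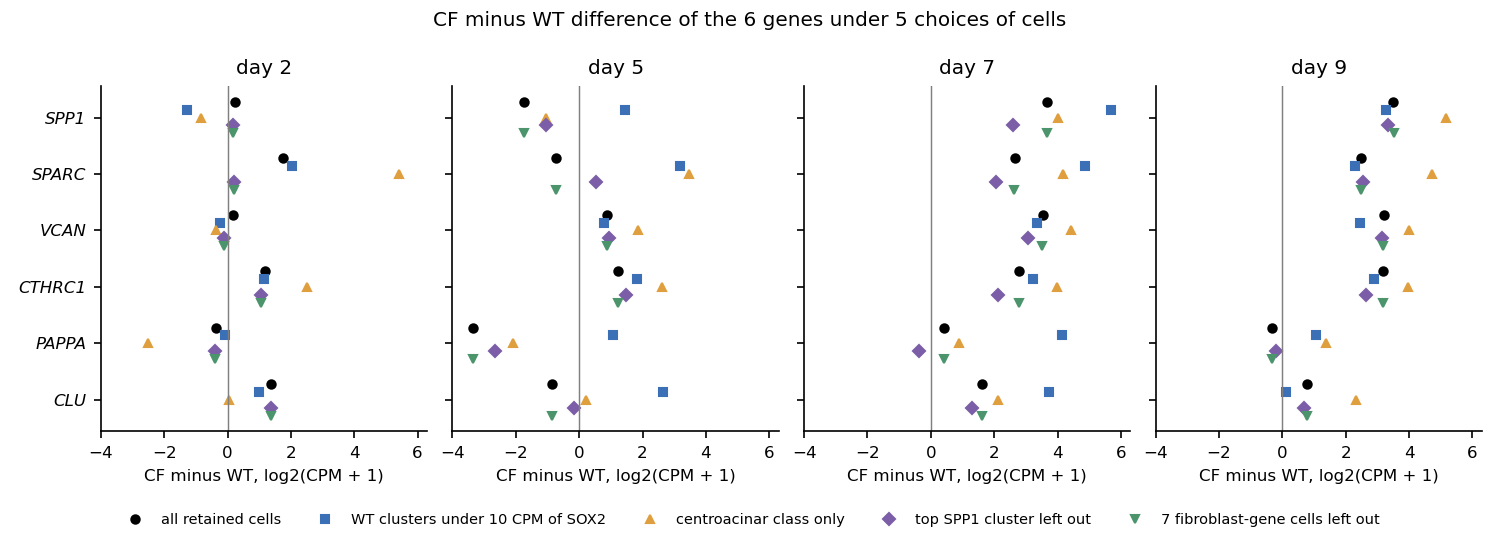
CF minus WT difference in log2(CPM + 1) of the 6 genes at day 2, 5, 7 and 9 with all retained cells (black) and under 4 other choices of cells, with 1 value per gene, day and choice and a vertical line at no difference. SPP1 at day 5 is -1.74 with all cells and 1.45 against WT clusters under 10 CPM of SOX2, while at day 7 and 9 it is 2.60 or more under all 5 choices.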

How the data were processed

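Single cell RNA-seq (10x Genomics) was made from WT and CF ferret PDE cultures at ALI day 2, 5, 7 and 9. The deposited matrices hold UMI counts per gene and barcode, made by the authors with Cell Ranger 5.0.1 on ferret genome ASM1176430v1.1, and processed with Seurat in R 4.1.2. The authors filtered low-quality cells and doublets. They also deposited, per cell, the percent of mitochondrial counts, the cluster and the class. The cell table retained 32945 cells, the poorest with 501 genes and the highest mitochondrial share 20.0%. Paired libraries shared at most 14 barcodes.

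UMIs were summed over the retained cells of each library, class or cluster and divided by its total (CPM). Differences are log2(CPM + 1), for genes with at least 30 UMIs over both libraries, and past 2-fold counts as called. Intervals are exact at 95%: Poisson for sums, Clopper-Pearson for shares, conditional binomial for ratios. Cells with at least 3000 UMIs were thinned to 3000 (seed 11) for shares and co-detection. Likeness used genes with at least 10 CPM in 1 cluster and 200 UMIs (5 genes named for SPP1, up to 3 for the others, some of which are not reported here). Of each of 7 lists of related genes, up to 4 with the largest absolute mean difference over day 7 and 9 were named, among those with at least 30 UMIs over both libraries on each of the 4 days (3 genes of the PAPPA axis). Differences that went with cluster shares and with levels were computed cluster by cluster. Of the 13 marker lists, those of the study's classes stood at 6719 to 10502 CPM (ductal), 562 to 1401 in WT and 485 to 890 in CF (acinar), 19912 to 49423 (centroacinar), 878 to 2890 (progenitor) and 1.26 to 76.6 (proliferating). Alternatives used edgeR 4.0.16 and DESeq2 1.42.0 scaling factors on the counts. Tools were Python 3.11.15, numpy 2.4.6, scipy 1.17.1, pandas 2.3.3 and R 4.3.3. The 6 genes and all lists were chosen with earlier results of these data known. Deposited normalized counts and lineage scores were not used. ITGAV, MMP3, IBSP, DSPP, KRT16, MUC20, TYROBP, CPA1, PRSS1, PNLIP and AMY2B were not analysed here.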

Additional observations from a re-analysis of the deposited data

Results flagged for a closer look

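For 4 of the 6 genes the difference between CF and WT pointed in opposite directions on different days, with 1 library per genotype and day, and the difference between days was not tested. SPP1 was 0.22, -1.74, 3.68 and 3.51 (CF minus WT, log2(CPM + 1)) at day 2, 5, 7 and 9. SPARC was 1.76, -0.73, 2.66 and 2.47, and CLU was 1.36, -0.86, 1.61 and 0.76. PAPPA was -0.37, -3.35, 0.41 and -0.32. With all retained cells, WT was higher at day 5 and CF at day 7 in all 4 genes. These directions depended on the cells chosen. Against the SOX2-low WT clusters SPP1 and PAPPA at day 5 were 1.45 and 1.05, and SPARC and CLU were higher in CF too. PAPPA at day 7 was lower in CF without the leading SPP1 clusters. SPARC at day 2 was 0.21 without the fibroblast-gene cells.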

How the results depend on the processing

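No paired analysis was possible because the groups compared, 1 library for each genotype and day, share no 2 replicate numbers, and days are conditions here and not replicates. Of 15 differences past 2-fold, all 15 stayed past it in the same direction with edgeR's TMM factors, DESeq2's size factors, all deposited barcodes, thinned cells or cells weighted equally. A pseudocount of 5 CPM kept 12 (CTHRC1 at day 2 and 5 and SPARC at day 2 were under it), SOX2-low WT clusters 12, the centroacinar class 14, leaving out the leading SPP1 clusters 14 and leaving out the 7 fibroblast-gene cells (added after seeing the data) 14. Against SOX2-low WT clusters, SPP1 and PAPPA at day 5 turned from -1.74 and -3.35 to 1.45 and 1.05. The number of the 6 genes past 2-fold moved from 3 to 1 (higher, day 2) and from 1 to 0 (higher, day 5) with the larger pseudocount, from 3 to 2 (higher, day 2) without the leading SPP1 clusters, without the fibroblast-gene cells, in the centroacinar class and against SOX2-low WT clusters, to 2 (higher, day 5) with all barcodes, to 4 (lower, day 5) with cells weighted equally, to 1 (lower, day 2) and 3 (higher, day 5) in the centroacinar class, and to 1 (lower, day 2), 5 (higher, day 5) and 0 (lower, day 5) against SOX2-low WT clusters; the causes were not tested. The late higher counts rose in some settings too. PAPPA was past 2-fold higher at day 7 (4.13) and day 9 against SOX2-low WT clusters, and at day 9 (1.38) in the centroacinar class. Over all genes, the larger pseudocount gave 270 higher and 256 lower at day 2, 141 and 280 at day 5, 305 and 219 at day 7 and 228 and 287 at day 9, against 572 and 610, 343 and 657, 712 and 470 and 514 and 545. Across all settings SPP1 stayed between 2.60 and 5.70 at day 7 and between 3.28 and 5.17 at day 9. Depth limits VCAN and CTHRC1 most, with 12 to 95 UMIs in each WT library.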
